A study of Mus musculus with 36 samples.

Results

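The Kv4 potassium channel complex was followed through 36 RNA-seq libraries made from the anterior cingulate cortex (aCC, right side) of female mice. It was taken as 9 named genes of the 52636 in the deposited table, namely the pore subunits Kcnd1, Kcnd2 and Kcnd3, the KChIP subunits Kcnip1, Kcnip2, Kcnip3 and Kcnip4, and the DPP subunits Dpp6 and Dpp10. Kcnd2 had been singled out through its level in these same vehicle libraries, where it was higher in Brd1+/- than in WT mice, and its partners were added by name to ask whether they follow it. The mice were wild type (WT) or heterozygous for a constitutive targeted deletion in Brd1, which encodes a chromatin scaffold protein, on the C57BL/6NTac background, and were 8 to 11 weeks old. They were given saline (vehicle) or the tricyclic antidepressant imipramine (IMN) at 10 mg/kg, which made 4 groups with 1 library per mouse, of which the vehicle groups held 8 WT and 9 Brd1+/- mice and the IMN groups 10 WT and 9 Brd1+/- mice. All mice, vehicle groups included, had been injected over successive days and put through tail suspension, open field and forced swim tests before the brain was taken, and no group without injections or tests was analysed here. The deletion is carried by every cell, and a punch holds neurons of several layers together with glia.

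Kv4 channels carry the fast, transient A-type potassium current of neuronal dendrites and cell bodies, which opens below spike threshold, delays firing and damps back-propagating action potentials. The pore is a tetramer of Kv4 subunits. The KChIPs are cytoplasmic EF-hand calcium sensors that clasp the Kv4 N terminus, bring the channel to the surface and slow its inactivation, and DPP6 and DPP10 are single-pass membrane proteins, related to dipeptidyl peptidases but without enzymatic activity, that speed up its gating. In cortex, Kv4.2 (Kcnd2) is known from pyramidal cells, and Kv4.3 (Kcnd3) and KChIP1 (Kcnip1) are prominent in interneurons.

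The members are close paralogs, so their coding sequences are shown first, for what they say about reads of 50 bases. The first 60 coding bases of the 3 pore genes encode the N-terminal stretch that the KChIPs bind, and capitals mark the 42 bases that are the same in all 3. They are given 5′ to 3′ on the coding strand from the GENCODE M21 transcripts, on GRCm38.
Kcnd1: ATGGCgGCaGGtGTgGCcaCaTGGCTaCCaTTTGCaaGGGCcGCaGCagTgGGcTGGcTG
Kcnd2: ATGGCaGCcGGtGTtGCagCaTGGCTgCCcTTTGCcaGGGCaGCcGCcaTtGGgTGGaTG
Kcnd3: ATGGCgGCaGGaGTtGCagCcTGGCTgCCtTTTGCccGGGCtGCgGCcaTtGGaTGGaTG
These windows lie within 1 coding exon each, at chrX:7823843-7823902, chr6:21216299-21216358 and chr3:105458816-105458875, all on the plus strand. The differing bases stand singly or in pairs between short identical runs, so that a read of 50 bases within these windows crosses several of them.

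The KChIPs differ at their N termini and share a core of EF hands. The stretch of 60 bases within 1 exon that is most alike in all 4 genes is shown for the same reason, with the 37 bases that are the same in all 4 in capitals.
Kcnip1: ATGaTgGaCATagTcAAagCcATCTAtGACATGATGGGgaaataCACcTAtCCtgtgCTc
Kcnip2: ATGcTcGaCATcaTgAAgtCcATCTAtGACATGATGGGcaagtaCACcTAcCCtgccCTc
Kcnip3: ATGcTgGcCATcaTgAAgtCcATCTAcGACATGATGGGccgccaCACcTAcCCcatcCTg
Kcnip4: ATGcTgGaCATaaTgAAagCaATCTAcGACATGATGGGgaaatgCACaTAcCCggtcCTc
These windows are coding exon sequence on the minus strand at chr11:33634621-33634680, chr19:45794241-45794300, chr2:127460025-127460084 and chr5:48396693-48396752. Over whole coding sequences the identity of aligned bases was 71.7% to 73.5% among the pore genes, 70.5% to 73.0% among the KChIPs and 61.6% between Dpp6 and Dpp10. The longest run that any pair of these relatives shared was 29 bases, between Kcnd1 and Kcnd3, and 0 words of 50 bases were shared between any 2 members over all their annotated transcripts. With genes outside the complex, Kcnip4 shared 3.49%, Dpp10 2.96% and Kcnd3 1.21% of their words with transcripts of the opposite strand, among them Kcnd3os. Dpp10 also shared 2.63% with other genes on the same strand. Reads from the opposite-strand stretches cannot be told apart without strand, and those from the same-strand stretches cannot be told apart by strand either. Whether strand was used in the counting is not given in the sources used here.

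All values are TPM, a measure of transcript abundance in which reads are scaled to transcript length and which sums to nearly the same total in each library, so levels can be compared between genes. Depth per library is not in the table, and the labels name no batch. All 9 members passed the filter on low values, as did 25572 of the 52636 genes. Brd1 was at 26.4 ± 3.03 TPM (SD, n = 8) in WT vehicle, 16.8 ± 2.72 (n = 9) in Brd1+/- vehicle, 23.3 ± 3.43 (n = 10) in WT IMN and 16.8 ± 2.1 (n = 9) in Brd1+/- IMN libraries, and its log2 difference by genotype, averaged over both treatments, was −0.55 (limma, adjusted p = 2.1e-05). In the main fits of 2 groups, 0 of 25572 genes had an adjusted limma p under 0.05 between genotypes within a treatment. Brd1 itself was thus not called there, whereas the paper reports it as significant after correction in vehicle aCC. A gene that these fits do not call is therefore not shown to be unchanged. The 6 excitatory cortical neuron markers were all detected, at a median of at least 1 TPM. The library of Brd1+/- vehicle replicate 6 stood apart with a striatal marker score (mean log2(TPM + 0.5) of 12 genes) of 6.18, where the other libraries lay between 2.42 and 3.41. WT vehicle replicate 1 had the lowest upper-layer score, 4.57, and an oligodendrocyte score of 7.25. WT IMN replicate 7 had the highest oligodendrocyte score, 7.67, and an upper-layer score of 4.88. Brd1+/- IMN replicate 6 had the lowest striatal (2.42), microglia (3.38) and immediate-early (4.62) scores of all 36 libraries, an oligodendrocyte score of 7.56 and an upper-layer score of 4.81. For the members, some group differences and slopes are given with and without single libraries. The relatives and regulators treated below were not refitted with single libraries left out. Correlations between genes, or with marker scores, were not computed without the libraries named above.

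Kcnip2, Kcnip3, Kcnip4, Dpp6 and Dpp10 had a higher mean level than each pore subunit in every group, whereas Kcnip1 lay below Kcnd2 and Kcnd3. Over all 36 libraries the mean level was 111 TPM for Kcnip3, 99.9 for Dpp6, 83.7 for Kcnip4, 63.9 for Kcnip2, 54.9 for Dpp10, 34.5 for Kcnd2, 25.4 for Kcnd3, 21.3 for Kcnip1 and 5.21 for Kcnd1. Of the neighbours in that order, Kcnip1 was above Kcnd1 in 36 of 36 libraries, Kcnip4 above Kcnip2 in 33, and Dpp6 above Kcnip4 and Kcnd2 above Kcnd3 in 31. Kcnip3 was above Dpp6 in only 22 of the 36 libraries, Kcnip2 above Dpp10 in 21, Dpp10 above Kcnd2 in 26 and Kcnd3 above Kcnip1 in 24, so single libraries often reversed the order of these pairs. The members also differed in how much they varied from library to library. Over all libraries the coefficient of variation was 10.8% for Kcnip1, 11.2% for Kcnd2, 12.2% for Kcnip4 and 12.5% for Dpp6, but 24.0% for Kcnd1, 24.9% for Kcnd3 and 42.4% for Dpp10.

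**Figure D1:**
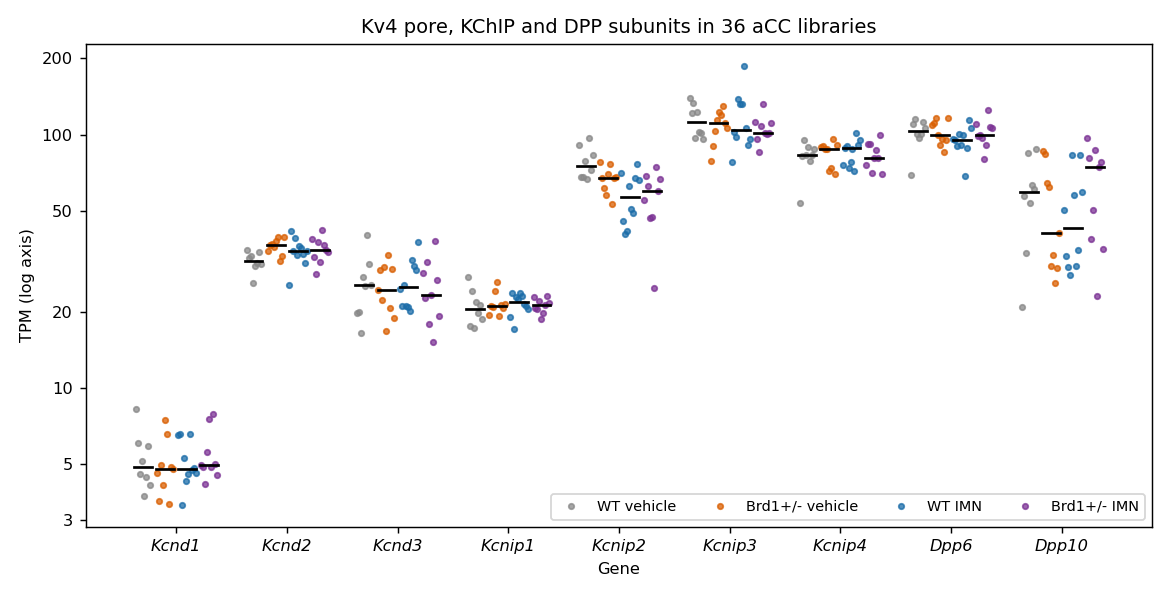
TPM of each member on a log axis, with 1 point per library, coloured by group, and a black bar at each group's median. Kcnd1 is the lowest of the 9 genes, Dpp10 spreads from 20.9 to 96.7 TPM, and in no gene do the groups separate.

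Kcnd2, which encodes Kv4.2, lay between 26.0 and 35.1 TPM (median 31.7) in WT vehicle and between 31.7 and 39.6 TPM (median 36.5) in Brd1+/- vehicle libraries. In IMN-treated mice it ranged from 25.4 to 41.5 TPM (median 34.7) in WT and from 28.2 to 42.1 TPM (median 35.0) in Brd1+/- libraries. The Brd1+/- vehicle libraries were shifted upwards against WT vehicle with overlap, whereas the IMN groups covered the same range. The log2 difference in vehicle mice was 0.20, which chose the gene and is given without a test. Between IMN-treated genotypes, in libraries that played no part in that choice, the means were 35.2 ± 4.16 (n = 9) and 34.5 ± 4.32 TPM (n = 10), a log2 difference of 0.03 (95% interval −0.14 to 0.20), with an adjusted p of 1.00 (limma) and p = 0.748 in a two-sided exact permutation test. The sign of this difference turned when WT IMN replicate 1 (−0.0197) or Brd1+/- IMN replicate 6 (−0.00596) was left out.

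Kcnd3, the Kv4.3 subunit, was at 25.6 ± 7.48 TPM (n = 8) in WT vehicle, 25.03 ± 5.77 (n = 9) in Brd1+/- vehicle, 26.2 ± 5.90 (n = 10) in WT IMN and 24.7 ± 7.18 (n = 9) in Brd1+/- IMN libraries. Kcnd1, the Kv4.1 subunit, was at 5.28 ± 1.45, 4.94 ± 1.31, 5.15 ± 1.08 and 5.49 ± 1.32 TPM in the same order. Neither gene separated the groups, and none of their log2 differences in the 4 comparisons between groups exceeded 0.15 in size. Among the pore subunits Kcnd2 had the largest mean share in every group, and in single libraries its share ran from 41.0% to 67.8%. Its share of the summed Kv4 TPM was 51.0% ± 6.48 in WT vehicle and 55.1% ± 4.86 in Brd1+/- vehicle, and 52.6% ± 6.22 in WT IMN and 54.2% ± 7.73 in Brd1+/- IMN libraries. The last pair differed by 1.67 percentage points (two-sided exact permutation test, p = 0.607), and by −0.027 points without Brd1+/- IMN replicate 6. Fewer cells of a type and less RNA per cell cannot be told apart in such bulk punches.

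Among the KChIPs, Kcnip2 was the only one with an unadjusted limma p under 0.05 in any comparison, where it stood lower in IMN-treated than in vehicle WT mice and lower in Brd1+/- than in WT vehicle mice. Kcnip2 encodes KChIP2, best known for setting the transient outward current of heart muscle. It ranged from 66.6 to 97.1 TPM (median 75.5) in WT vehicle, from 53.0 to 77.8 TPM (median 67.6) in Brd1+/- vehicle, from 40.4 to 76.2 TPM (median 56.6) in WT IMN and from 24.8 to 74.3 TPM (median 59.8) in Brd1+/- IMN libraries. Every IMN group reached lower than its vehicle group and overlapped it at the top.

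In WT mice the mean of Kcnip2 was 57.0 ± 13.1 TPM under IMN and 78.1 ± 11.5 TPM under vehicle, a log2 difference of −0.47 (SE 0.13, 95% interval −0.74 to −0.21), and 10 of 10 IMN libraries were below the vehicle mean. Its unadjusted limma p was 0.0015 and its exact permutation p (two-sided) 0.0037, but after adjustment over all genes the limma p was 0.443 (0.251 to 0.571 over the alternative settings). In Brd1+/- mice the means were 56.2 ± 15.0 and 66.5 ± 8.08 TPM, a log2 difference of −0.29 (95% interval −0.62 to 0.04, unadjusted limma p = 0.080, adjusted p = 0.920). It was −0.15 (unadjusted limma p = 0.139) without Brd1+/- IMN replicate 6, and −0.13 (unadjusted limma p = 0.241) adjusted for the striatal and oligodendrocyte marker scores. Averaged over both genotypes the log2 difference was −0.38 (95% interval −0.59 to −0.17), and −0.41 to −0.31 with 1 library left out in turn. Of the IMN libraries, 16 of 19 were below their vehicle mean. The averaged difference had an unadjusted limma p of 0.00082 and an adjusted p of 0.119 (0.0981 to 0.227 over the alternative settings). It ranked 177 of the 25572 genes. A two-sided permutation test within genotypes gave p = 0.00059. That test was run on the same libraries for Kcnip2 alone, the partner with the smallest limma p, so it is no independent support. The WT and Brd1+/- responses differed by 0.18 (95% interval −0.24 to 0.61, limma interaction p = 0.388, adjusted p = 1.00), so a difference between the genotypes in this response was not shown. Without Brd1+/- IMN replicate 6 this difference was 0.32 (unadjusted limma p = 0.0620).

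By genotype, Kcnip2 stood at a log2 difference of −0.23 in vehicle mice (95% interval −0.42 to −0.04, unadjusted limma p = 0.022, adjusted p = 1.00, exact permutation p = 0.0274, two-sided), with 8 of 9 Brd1+/- libraries below the WT mean. Without WT vehicle replicate 6, the highest library, the log2 difference was −0.18 and the limma p 0.0539, and in a fit of all 36 libraries the limma p was 0.143. This difference pointed the other way from that of Kcnd2 in the same libraries. In IMN-treated mice the log2 difference by genotype was −0.05 (95% interval −0.41 to 0.32, unadjusted limma p = 0.797). Without Brd1+/- IMN replicate 6 it was 0.09 (unadjusted limma p = 0.489).

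**Figure D2:**
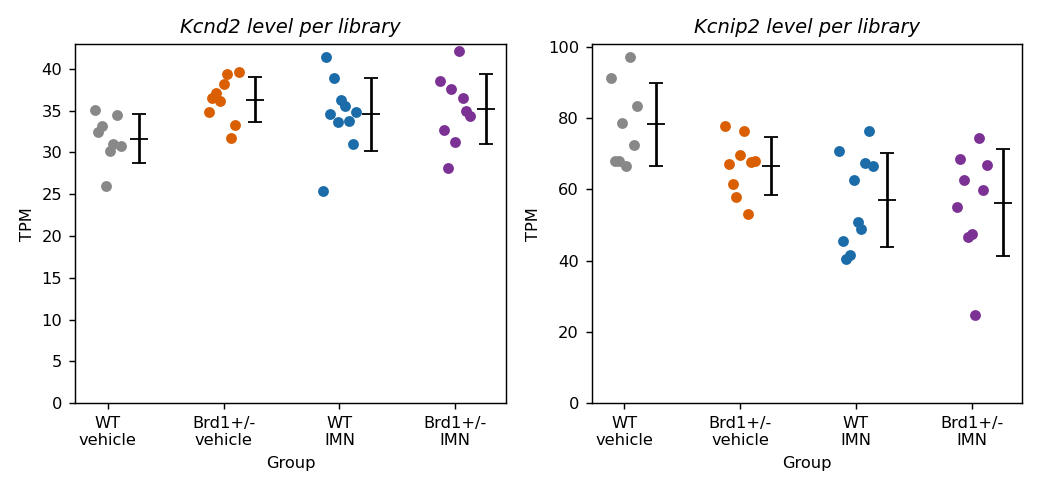
TPM of Kcnd2 (left) and Kcnip2 (right) on linear axes from 0, with 1 point per library and the mean ± SD beside each group. Kcnip2 means run from 78.1 TPM in WT vehicle to 56.2 TPM in Brd1+/- IMN libraries, whose replicate 6 is the lowest point at 24.8 TPM, while Kcnd2 means stay between 31.6 and 36.3 TPM.

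The immediate-early gene score, the mean log2(TPM + 0.5) of 13 activity-induced genes such as Fos and Arc, moved with IMN in the same libraries. It was 5.82 ± 0.47 in WT vehicle and 5.80 ± 0.24 in Brd1+/- vehicle against 5.34 ± 0.27 in WT IMN and 5.30 ± 0.37 in Brd1+/- IMN libraries. The oligodendrocyte score, of 10 myelin genes that were all detected, was 4.91, 5.24, 5.53 and 5.42 in the same order, over ranges that overlapped. The microglia score, of 7 genes that were all detected, was 4.05 ± 0.16, 4.01 ± 0.19, 3.96 ± 0.22 and 3.91 ± 0.22 in that order, also with overlap. Adjusted for the striatal and oligodendrocyte scores, the averaged IMN difference of Kcnip2 was −0.26, with an unadjusted limma p of 0.0034. Over 36 libraries, as deviations from group means, Kcnip2 had r = 0.31 with the immediate-early score. That was below Dpp6 (0.63), Kcnip4 (0.49) and Dpp10 (0.45). The part of immediate-early genes and of microglia in the averaged IMN difference of Kcnip2 was not tested.

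The other KChIPs showed no such pattern. Kcnip3, which encodes KChIP3, also known as the transcriptional repressor DREAM, was at 114 ± 17.2 TPM in WT vehicle, 109 ± 16.2 in Brd1+/- vehicle, 116 ± 31.8 in WT IMN and 105 ± 13.0 in Brd1+/- IMN libraries. Kcnip4, whose product KChIP4 can carry a domain that suppresses fast inactivation, was at 81.6 ± 12.5, 84.3 ± 9.62, 85.4 ± 9.99 and 83.1 ± 10.2 TPM in that order. Kcnip1 was at 21.0 ± 3.50, 21.6 ± 2.22, 21.5 ± 2.18 and 21.2 ± 1.42 TPM. Its coefficient of variation was the lowest over all libraries, but in WT vehicle, at 16.6%, it was the highest of the KChIPs. In the 4 comparisons between groups the log2 differences of Kcnip1, Kcnip3 and Kcnip4 lay between −0.10 and 0.07, and all of their 95% intervals held 0. As a share of all KChIP transcripts, Kcnip2 made up 26.5% ± 4.02 in WT vehicle, 23.8% ± 3.39 in Brd1+/- vehicle, 20.5% ± 5.11 in WT IMN and 21.0% ± 5.01 in Brd1+/- IMN libraries. The summed KChIP level per unit of summed Kv4 level was 4.78 ± 0.65, 4.28 ± 0.52, 4.27 ± 0.44 and 4.10 ± 0.44 in the same order, and between the IMN-treated genotypes it differed by −0.17 (two-sided exact permutation test, p = 0.422).

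Dpp6 was at 101 ± 14.4 TPM in WT vehicle, 102 ± 11.1 in Brd1+/- vehicle, 94.9 ± 12.2 in WT IMN and 102 ± 12.7 in Brd1+/- IMN libraries. Its log2 difference for IMN in WT mice was −0.09 (unadjusted limma p = 0.351), and −0.17 (unadjusted limma p = 0.0494, adjusted p = 0.471) without WT vehicle replicate 1, in which Dpp6 was at 69.6 TPM. That exclusion takes out a low vehicle library only. The lowest Dpp6 level of all libraries, 68.5 TPM, was in WT IMN replicate 7, which stayed in that fit. Dpp10 ranged over 20.9 to 87.8 TPM (median 59.1) in WT vehicle, 26.0 to 86.4 (median 41.0) in Brd1+/- vehicle, 28.0 to 83.1 (median 42.7) in WT IMN and 23.0 to 96.7 (median 74.8) in Brd1+/- IMN libraries. Within each group Dpp10 thus spanned most of its range. Its log2 difference was 0.33 between IMN-treated genotypes, yet with a 95% interval of −0.25 to 0.91, and its interaction term of 0.53 had an interval of −0.33 to 1.4 (unadjusted limma p = 0.217). The summed DPP level per summed Kv4 level was 2.22 ± 0.55 in WT IMN and 2.51 ± 0.36 in Brd1+/- IMN libraries (two-sided exact permutation test, p = 0.187).

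Counted over the complex, no member that was tested passed an adjusted limma p under 0.05 in any of the 7 comparisons. Kcnd2 was tested only between IMN-treated genotypes, and its 8 partners in all 7. Among all genes tested, 0.254% did for IMN averaged over both genotypes, 0.00782% for IMN in Brd1+/- mice, 0.00391% for genotype averaged over both treatments and 0% in the remaining 4. Those 4 hold both comparisons of genotype within a treatment, so the targeted gene Brd1 was not called there either. In Brd1+/- vehicle against WT vehicle 1 of the 8 partners (Kcnip2) had an unadjusted limma p under 0.05, where 3.75% of all genes tested did, and the median log2 difference of the partners was −0.05 against −0.02 for all genes. In Brd1+/- IMN against WT IMN it was 0 of 9 members, where 3.23% of all genes did, with a median of −0.02 against 0.01. In WT IMN against WT vehicle it was 1 of 8 partners (Kcnip2), where 6.6% of all genes did, and in Brd1+/- IMN against Brd1+/- vehicle 0 of 8, where 5.52% did. The interaction gave 0 of 8 (3.2% of all genes), genotype averaged over both treatments 0 of 8 (3.64%), and IMN averaged over both genotypes 1 of 8, again Kcnip2 (9.24%). Comparisons that share a group share its libraries, so that the vehicle mice of one genotype enter both its genotype and its IMN difference.

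**Figure D3:**
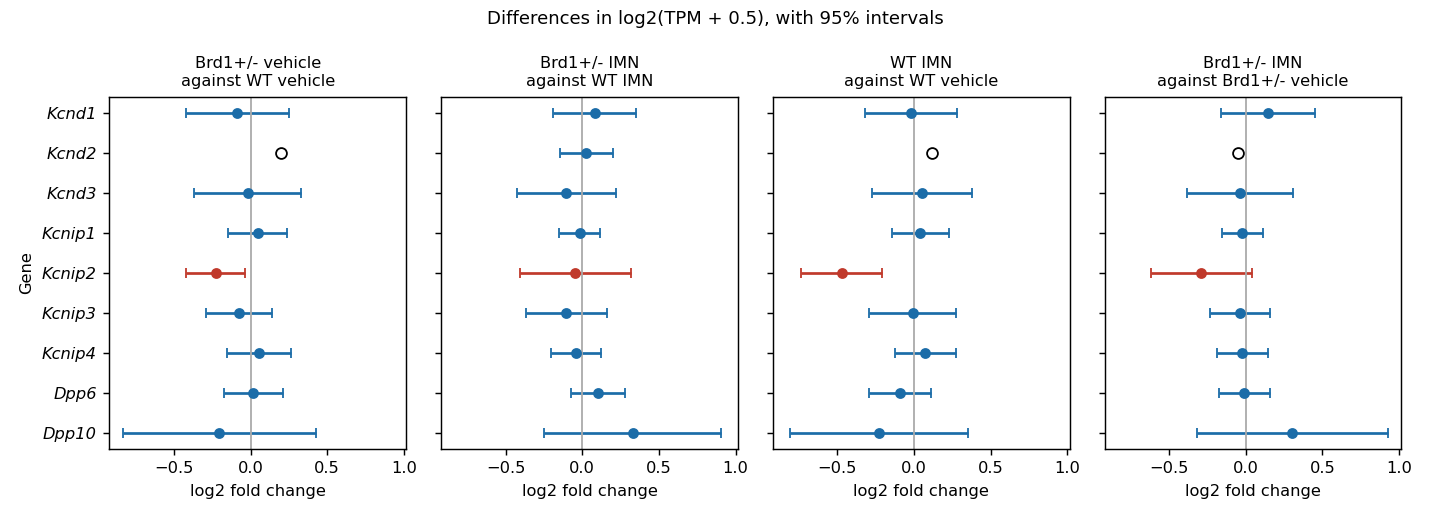
Log2 differences of the 9 members in the 4 comparisons between groups, on the log2(TPM + 0.5) scale, with 95% limma intervals. Kcnip2 is in red, and open circles give the Kcnd2 differences that share the libraries it was chosen on and carry no interval. The intervals of Kcnip2 in vehicle mice and in WT mice leave out 0, and those of the other partners hold it.

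Whether partners follow Kcnd2 was then asked library by library, on the deviations from the group means, so that differences between groups do not enter. Kcnip1 deviated with Kcnd2, with r = 0.44 (permutation p = 0.0074) and rho = 0.47 (permutation p = 0.0060) over n = 36 libraries, and r = 0.33 without the 2 libraries farthest from the Kcnd2 median, WT IMN replicate 1 and WT vehicle replicate 4. Within the groups r was 0.67 in WT vehicle, 0.14 in Brd1+/- vehicle, 0.55 in WT IMN and 0.31 in Brd1+/- IMN libraries. It was the only partner with a positive r in all 4 groups.

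Kcnip3 had r = 0.37 (permutation p = 0.045) and rho = 0.35 (permutation p = 0.048), but r = 0.19 without the same 2 libraries, so this relation rested on them, and within groups r was 0.55, −0.029, 0.53 and 0.21. Kcnip2 went the other way, with r = −0.42 (permutation p = 0.026) and rho = −0.34 (permutation p = 0.058), and r = −0.41 without the 2 libraries. The sign of Kcnip2 was not shared between groups, since r was −0.00085 in WT vehicle and 0.49 in Brd1+/- vehicle against −0.70 in WT IMN and −0.55 in Brd1+/- IMN libraries. Of the other partners, Kcnd1 had r = 0.22 (permutation p = 0.195) and rho = 0.36 (permutation p = 0.037), Dpp6 r = 0.039, Kcnip4 r = −0.16, Kcnd3 r = −0.28 and Dpp10 r = −0.30 (rho = −0.35, permutation p of rho = 0.045), each with a permutation p of r above that of Kcnip3. The median r of all 25571 other genes tested was 0.034, with quartiles of −0.15 and 0.22.

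The same question over all genes was put to a limma model of each gene's level on the Kcnd2 level and the group. Its slope is the log2 change of a gene per log2 unit of Kcnd2. Of all genes 6.5% had an adjusted p under 0.05 for this slope, and 0 of the 8 partners did, while 3 of them had an unadjusted p under 0.05, as did 21.7% of all genes. The slope was 0.44 (95% interval 0.10 to 0.79) for Kcnip1 with an adjusted p of 0.109, 0.63 (0.07 to 1.18) for Kcnip3 with an adjusted p of 0.168, and −0.88 (−1.55 to −0.21) for Kcnip2 with an adjusted limma p of 0.10. The Kcnip2 slope was −0.50 (adjusted limma p = 0.319) without Brd1+/- IMN replicate 6, the library with the highest Kcnd2 and the lowest Kcnip2 level, and −1.02 (adjusted p = 0.046) without Brd1+/- vehicle replicate 7. Adjusted for both scores it was −0.37 (adjusted limma p = 0.625), and in that fit Dpp6 had a slope of 0.73 (adjusted limma p = 0.0152) and Kcnip3 one of −0.0568.

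**Figure D4:**
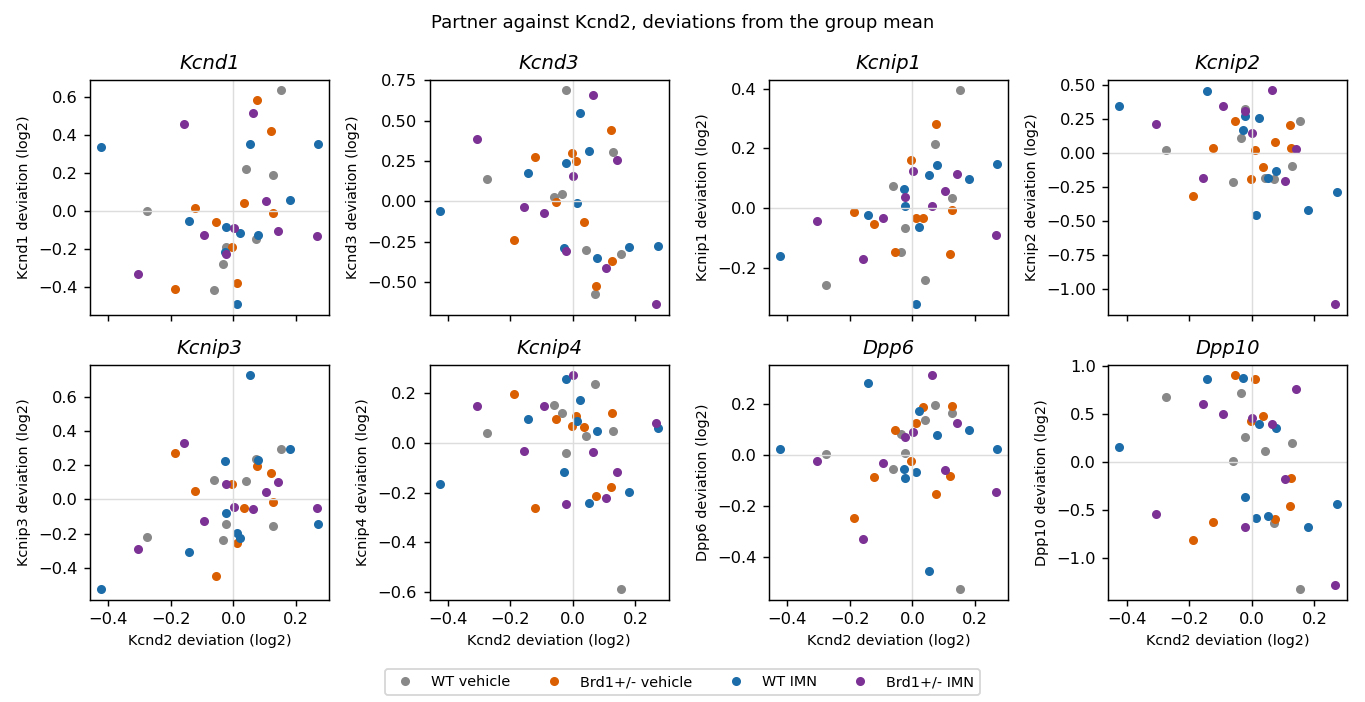
Deviation of each partner (vertical axes) against that of Kcnd2 (horizontal axes) from the group means of log2(TPM + 0.5), with 1 point per library coloured by group. Kcnip1 tends upwards (r = 0.44), Kcnip2 tends downwards (r = −0.42) with Brd1+/- IMN replicate 6 as its lowest point, and Dpp6 shows no tilt (r = 0.039).

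The genes most like Kcnd2 over the libraries were not members. Where the mean level was 1 TPM or more, the 5 highest r of deviations over 36 libraries belonged to Atp2a2 (r = 0.83), the endoplasmic reticulum calcium pump SERCA2, Atp5a1 (0.83), a mitochondrial ATP synthase subunit, Aars (0.83), alanyl-tRNA synthetase, Atp1b1 (0.83), a sodium pump subunit, and Sod2 (0.82), mitochondrial superoxide dismutase. These are descriptions, and the libraries share tissue composition and the TPM scale.

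Relatives and regulators of the complex were read from 5 lists of 44 genes in all. None had an adjusted limma p under 0.05 in any of the 7 comparisons, and at an unadjusted limma p under 0.05 there were 4 of the 44 in Brd1+/- IMN against WT IMN, all higher (3.23% of all genes tested), 4 in WT IMN against WT vehicle (6.6%), 4 in IMN averaged over both genotypes (9.24%), 2 in each of Brd1+/- vehicle against WT vehicle (3.75%), Brd1+/- IMN against Brd1+/- vehicle (5.52%) and the interaction (3.2%), and 0 in genotype averaged over both treatments (3.64%). Kcnb2, a delayed rectifier pore subunit, had a log2 difference of 0.23 between IMN-treated genotypes (unadjusted limma p = 0.038). Of the Kv beta and KCNE subunits, Kcne4 was at 0.22 (unadjusted limma p = 0.027) and Kcne2 at 0.29 (unadjusted limma p = 0.043) in the same comparison. Among the calcium sensors related to the KChIPs, Hpcal1 was at −0.40 in Brd1+/- vehicle against WT vehicle (unadjusted limma p = 0.013), and hippocalcin (Hpca) at −0.18 for IMN averaged over both genotypes (unadjusted limma p = 0.020).

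Dpp8, an active peptidase related to the DPP subunits, was at 0.25 for IMN averaged over both genotypes (unadjusted limma p = 0.014), and Dpp4 at 0.50 for IMN in WT mice (unadjusted limma p = 0.042). Among kinases and scaffolds that act on Kv4, Mapk3 (ERK1), which phosphorylates Kv4.2, was at −0.37 for IMN averaged over both genotypes (unadjusted limma p = 0.0086) and the scaffold Dlg1 at 0.12 (unadjusted limma p = 0.063).

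Of the relatives 6 of the 44 had an adjusted limma p under 0.05 for the slope on Kcnd2, 5 of them with a positive and 1 with a negative slope, where 6.5% of all genes tested did in either direction. The slope on Kcnd2 was 2.67 for Kcna1 (adjusted limma p = 0.0033), 1.79 for Kcna2 (0.0154) and 1.19 for Kcnc1 (0.0161), which encode the pore subunits Kv1.1, Kv1.2 and Kv3.1 of fast-spiking cells and axons. It was 0.89 for Kcnab1 (adjusted limma p = 0.0291) and 0.67 for Kcnab2 (0.0455), which encode cytoplasmic beta subunits of Kv1 channels, and −1.29 for Mapk3 (0.0485). Of 10 alternative settings, the adjusted limma p stayed under 0.05 in 9 for each of Kcna1, Kcna2 and Kcnc1. It did so in only 5 for Kcnab1 and in 6 each for Kcnab2 and Mapk3. Adjusted for the striatal and oligodendrocyte scores, all 6 had a larger adjusted limma p, from 0.0886 for Kcna2 to 0.587 for Kcnab2. In that fit 1 other relative, Kcnb2, singled out after its value was seen, had an adjusted limma p of 0.0481 with a slope of 1.25, against a slope of 0.33 without the scores. The count of relatives against that of partners was not tested.

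Marker scores of the punch moved with the members too. Over 36 libraries, as deviations from group means, Kcnd2 had r = 0.55 with the oligodendrocyte score, 0.54 with the deep-layer score (6 genes such as Fezf2 and Tle4), 0.53 with the excitatory neuron score and −0.61 with the microglia score, with which Kcnip2 had r = 0.62 and Kcnd3 r = 0.61. Kcnip3 and Kcnip1 had the same signs, with r = 0.66 and 0.51 for deep layers, 0.71 and 0.31 for oligodendrocytes and −0.60 and −0.35 for upper layers. Kcnip2, Kcnip4, Dpp6 and Dpp10 had the opposite signs there, with r between −0.67 and −0.56 for oligodendrocytes and between 0.46 and 0.62 for upper layers. Their rho had the same signs, between −0.55 and −0.50 for oligodendrocytes and between 0.31 and 0.49 for upper layers. None of these values was computed without WT vehicle replicate 1, which had the lowest upper-layer score. The members thus split by the sign of r with the upper-layer and deep-layer scores, Kcnd2 with Kcnip1, Kcnip3 and Kcnd1 on one side and Kcnip2, Kcnip4, Dpp6, Dpp10 and Kcnd3 on the other. With the interneuron score r was 0.46 for Kcnd2, 0.46 for Kcnip3 and 0.39 for Kcnip1, against −0.41 for Kcnd3 and −0.52 for Dpp10. Kcnip1 had r = 0.51 with the excitatory neuron score and Kcnd3 r = −0.07, so these scores did not sort the members by the cell types named above. Between members the largest r were 0.51 for Dpp6 with Dpp10, 0.50 for Kcnd3 with Kcnip2 and 0.49 for Kcnip1 with Kcnip3, and the lowest was −0.58 for Kcnd1 with Kcnip4. These r are descriptions over libraries that share the punch and the TPM scale, and the part of the punch's makeup in any relation between members was not tested beyond the covariate fits.

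**Figure D5:**
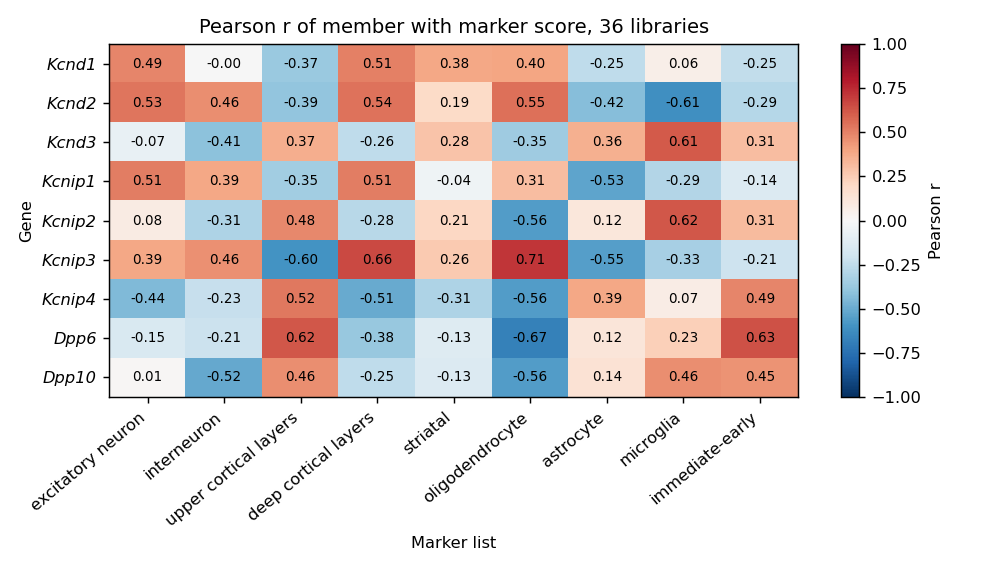
Pearson r of each member (rows) with the score of each marker list (columns), as deviations from group means over 36 libraries, with the value printed in each cell. The oligodendrocyte column is positive for Kcnd1, Kcnd2, Kcnip1 and Kcnip3 and negative for the other 5 members, from 0.71 for Kcnip3 to −0.67 for Dpp6.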

How the data were processed

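RNA from aCC punches of 36 mice was sequenced by the authors on BGISEQ-500 as single-end reads of 50 bases. Per the submitters' processing notes and the methods, reads were checked with FastQC, trimmed with Trimmomatic, aligned to GRCm38 with HISAT2 2.1.0 and quantified with StringTie 1.3.4. The authors deposited TPM values per gene, with Ensembl identifiers, which were matched to symbols here. Counts were not used here, so depth is unknown and no count test was run. TPM keeps no depth, and mitochondrial genes took 21.7% to 30.5% of it.

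Values were tested as log2(TPM + 0.5) with limma 3.58.1 (lmFit, eBayes with trend, R 4.3.3) in the genes that reached 0.1 TPM in 8 libraries or more, with Benjamini-Hochberg adjustment over all genes tested. A fold change on this scale understates the change of low genes. Pairs of groups were fitted on their own libraries, and the interaction and averages on all 36. Single values were tested by exact permutation over libraries, or with 100000 permutations. The members and gene lists were chosen with earlier results of these data known, Kcnd2 through its vehicle difference, so it was tested only between IMN-treated genotypes. All members, Brd1, in each list of relatives the genes with an adjusted p under 0.05 or the 2 smallest p over the comparisons, and the 5 genes most like Kcnd2 were named. For the slope on Kcnd2 the relatives under an adjusted p of 0.05 were named. The values of 1 relative that this rule takes are not reported here.

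Alternatives changed the pseudocount (0.1, 1), the filter (none, or a mean of at least 1 TPM), the scaling (median ratio, quantile, nuclear genes), covariates, a replicate block and libraries left out. The fits were checked on simulated data. No pairing of the libraries by the replicate numbers in the labels was seen.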

Additional observations from a re-analysis of the deposited data

Results flagged for a closer look

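In 40 tests of a gene within a group, 2 libraries were farther from the rest of their group than Dixon's 95% limit allows, a limit that chance passes in about 1 in 20 groups. Kcnip4 was at 53.5 TPM in WT vehicle replicate 1, where the group's median was 83.1 TPM. Dpp6 was at 69.6 TPM in that same library, against a median of 103.5 TPM. The library also had the lowest upper-layer score (4.57) and the lowest immediate-early score (4.77) of its group, and its oligodendrocyte score was 7.25. Their part in these values was not tested.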

How the results depend on the processing

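No member that was tested passed an adjusted limma p under 0.05 in any of the 7 comparisons under any setting, with Kcnd2 tested only between IMN-treated genotypes. The number of partners with an unadjusted limma p under 0.05 was 0 instead of 1 for genotype in vehicle mice when all 36 libraries were fitted together, 1 instead of 0 for averaged genotype with the marker scores as covariates, and 2 instead of 1 for IMN in WT mice with WT vehicle replicate 1 and Brd1+/- vehicle replicate 6 both left out. The partners with an adjusted p under 0.05 for the slope on Kcnd2 numbered 1 instead of 0 under quantile normalization and TPM over nuclear genes (Kcnip2, with a negative slope) and with the marker scores as covariates (Dpp6, with a positive slope). The cause was not tested. In the 7 comparisons the relatives with an adjusted p under 0.05 stayed at 0 under every alternative run, and no scaling moved the median of all genes by over 0.1 on the log2 scale in a comparison. Most other differences were near 0, and the following log2 values changed sign, with no call on either side. With median-ratio scaling, the values were, for genotype in vehicle mice Kcnd3 0.00265, for IMN in WT mice Kcnip3 0.00859, for averaged genotype Kcnd1 0.00495. With quantile normalization, the values were, for genotype in vehicle mice Kcnd3 0.00705, for IMN in Brd1+/- mice Dpp6 0.0159, for IMN in WT mice Kcnip3 0.0310, for averaged IMN Kcnip3 0.0100. With WT vehicle replicate 1 and Brd1+/- vehicle replicate 6 both left out, a setting chosen after seeing the data, the values were, for genotype in vehicle mice Kcnip4 −0.00550 and Dpp6 −0.0463, for IMN in Brd1+/- mice Kcnd3 0.0204, for IMN in WT mice Kcnd1 0.0695, Kcnip3 0.0326 and Kcnip4 −0.0106, for the interaction Kcnd3 0.0151, for averaged genotype Kcnd1 0.0160, Kcnip4 −0.0223 and Dpp10 −0.00207, for averaged IMN Kcnip3 0.00755, Kcnip4 −0.0274 and Dpp10 −0.0864. Adjusted for the striatal and oligodendrocyte scores, the values were, for IMN in Brd1+/- mice Kcnd3 0.13 and Dpp6 0.0205, for IMN in WT mice Kcnip1 −0.0399, for the interaction Kcnd3 0.0138 and Kcnip3 0.0563, for averaged IMN Kcnip1 −0.0178 and Dpp6 0.000467, for the slope on Kcnd2 Kcnd1 −0.0102, Kcnip3 −0.0568, Kcnip4 0.26 and Dpp10 0.0542. With TPM over nuclear genes, the values were, for IMN in Brd1+/- mice Dpp6 0.00936, for IMN in WT mice Kcnip3 0.00913, for averaged genotype Kcnd1 0.00552.

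With 1 library left out in turn, the number of partners with an unadjusted p under 0.05 was 0 to 1 for genotype in vehicle mice (0 without WT vehicle replicate 6) and for IMN in Brd1+/- mice (1, Kcnip2, without Brd1+/- IMN replicate 7) and 1 to 2 for IMN in WT mice (2 without WT vehicle replicate 1), the partners with an adjusted p under 0.05 for the slope numbered 0 to 1 (1, Kcnip2, without Brd1+/- vehicle replicate 7), and the difference of the Kcnd2 share between IMN-treated genotypes was −0.0272 to 2.92 percentage points. Log2 values that changed sign were, for genotype in vehicle mice Kcnd1 −0.16 to 0.00426, Kcnd3 −0.10 to 0.0793, Kcnip4 −0.0276 to 0.0903 and Dpp6 −0.0566 to 0.0499, for genotype in IMN mice Kcnd2 −0.0197 to 0.0655, Kcnip1 −0.0516 to 0.00541 and Kcnip2 −0.10 to 0.0932, for IMN in Brd1+/- mice Kcnd3 −0.12 to 0.0443, Kcnip1 −0.0406 to 0.0136, Kcnip4 −0.0560 to 0.00840 and Dpp6 −0.0480 to 0.0319, for IMN in WT mice Kcnd1 −0.0805 to 0.0695, Kcnd3 −0.0306 to 0.15, Kcnip3 −0.0908 to 0.0484 and Kcnip4 −0.0106 to 0.11, for the interaction Kcnip3 −0.0855 to 0.0538, for averaged genotype Kcnd1 −0.0395 to 0.0422, Kcnip1 −0.00346 to 0.0433, Kcnip4 −0.0334 to 0.0256 and Dpp10 −0.0309 to 0.14, for averaged IMN Kcnd3 −0.0329 to 0.0574, Kcnip1 −0.00914 to 0.0376, Kcnip3 −0.0639 to 0.00569, Kcnip4 −0.0163 to 0.0426 and Dpp10 −0.0576 to 0.12, for the slope on Kcnd2 Dpp6 −0.0280 to 0.17.

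No pairing of the libraries by replicate number was seen: 8 of 51 same-numbered pairs had a correlation of deviations above 0.1 (median −0.0177), and 1 of 35 libraries correlated best with its own number. Such correlations cannot exclude a pairing with a small effect. With the numbers as a block no count of partners changed, and the values of reversed sign were, for genotype in vehicle mice Kcnd3 0.0271 and Dpp6 −0.00521, for IMN in WT mice Kcnd1 0.000850, Kcnd3 −0.0386 and Kcnip3 0.0571, for averaged IMN Kcnd3 −0.0128. Depth is unknown, so the precision of single libraries is seen only through their spread.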
